A study of Mus musculus with 6 samples.

Results

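A set of 9 receptors that restrain myeloid cells was followed in microglia with and without the transcription factor Bhlhe41. The set held *Lilrb4a*, *Pirb*, *Lair1*, *Sirpa*, *Cd200r1*, *Pilra*, *Clec12a*, *Cd300a* and *Cd300lf*, and it was read through every probe of the array whose transcript accession maps to one of these symbols. This gave 13 probes for the 9 genes, of 56601 probes and 23462 genes tested. Microglia were enriched on a Percoll gradient from young mice (3-month-old in the study's description of these arrays) and sorted as CD45low CD11b+ Cx3cr1+ cells. Control samples, *B41*HET, came from Bhlhe41 dTomato-Cre/+ mice, which themselves carry 1 knock-in allele, and the deficient samples, *B41*KO, came from Bhlhe41 dTomato-Cre/dTomato-Cre mice, which carry it on both chromosomes. In this allele a dTomato and Cre cassette sits ahead of the *Bhlhe41* start codon, so that the gene's own promoter drives both products in place of the Bhlhe41 protein, in every cell type that uses this promoter. There were 3 samples per genotype, and no sample without the cassette was analysed here. The labels call them biological replicates and give 3 mice per genotype, whereas the methods state that each sample was pooled from several mice. The sources used here do not settle which holds, so the spread between samples is either that between single mice or that between pools.

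These receptors act as brakes on activation. Most carry immunoreceptor tyrosine-based inhibitory motifs (ITIMs) in the cytoplasmic tail, which are phosphorylated by Src family kinases and then recruit the phosphatases SHP-1 (*Ptpn6*) and SHP-2 (*Ptpn11*) or the lipid phosphatase SHIP-1 (*Inpp5d*), whereas Cd200r1 lacks an ITIM and signals through the adaptors Dok1 and Dok2. Several are encoded beside near-identical activating partners, which lack the motif and couple to the adaptors DAP12 (*Tyrobp*) or FcRγ (*Fcer1g*). In the brain the axes of CD200 with CD200R and of CD47 with SIRPα are the best known, because neurons display both ligands to microglia. Outside the brain many of the 9 receptors are carried by neutrophils, monocytes, other macrophages and dendritic cells.

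Of the 13 receptor probes, 2 were lower in *B41*KO microglia and 0 were higher when a call required that the adjusted P (limma, Benjamini-Hochberg over all probes) be 0.05 at most and that the log2 fold change reach 0.5 in either direction. *Lilrb4a* fell 3.91-fold, and the dimmer of the 2 *Cd300lf* probes fell 1.88-fold. Over all probes, 1.72% were called higher and 3.34% lower, against 2 of 13 (15.4%) receptor probes called lower. By the brightest probe of each gene, 1 of the 9 genes, *Lilrb4a*, was called lower and 0 were called higher, where 4.01% of all genes were lower and 1.44% higher. At an unadjusted P under 0.05 there were 2 receptor probes higher (the dimmer ones of *Cd300a* and *Pilra*) and 5 lower of 13, beside 11.0% higher and 12.1% lower over all probes. The 3 samples of one genotype lay wholly above or below the 3 of the other for 8 of 13 probes, 6 of them lower and 2 higher in *B41*KO, while 29.7% of all probes were separated in this way. The median log2 fold change of the 9 genes was -0.08, beside 0.007 over all genes. All 13 probes were well above background on all 6 arrays.

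**Figure D1:**
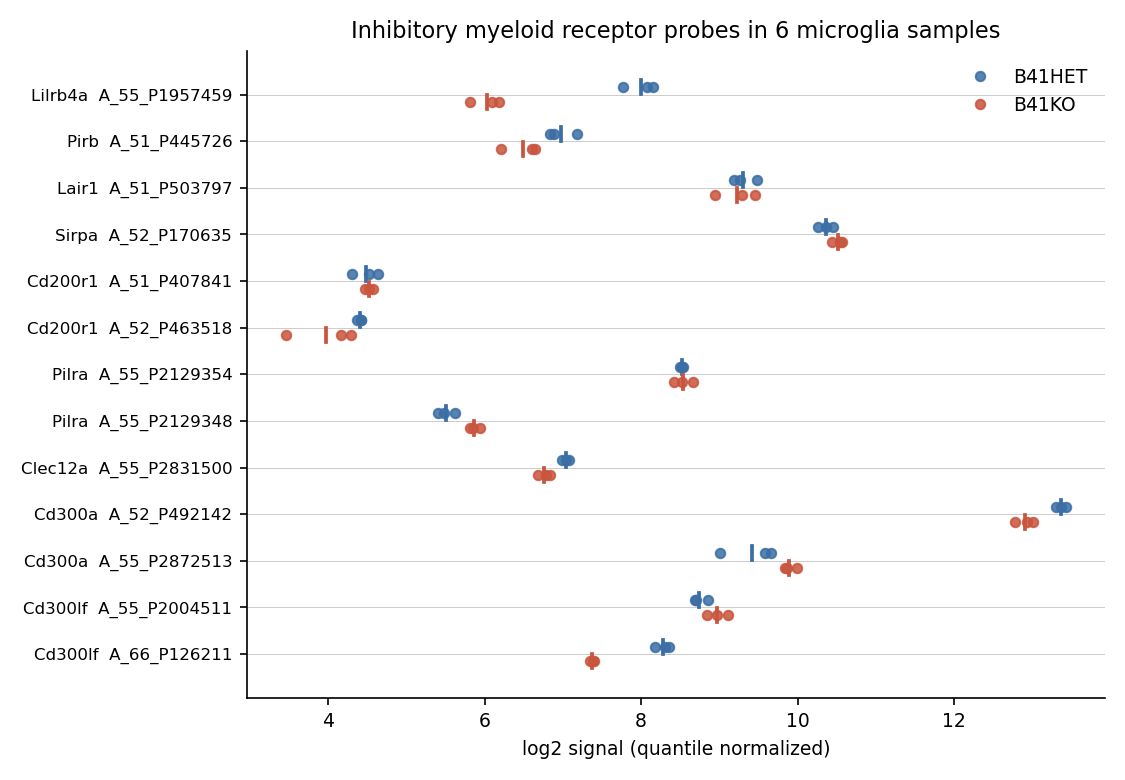
Log2 signal (quantile normalized, horizontal axis) of the 13 receptor probes, named by gene and probe, with 1 point per sample, *B41*HET in blue and *B41*KO in red, and a vertical bar at the mean of 3 samples. The genotypes are far apart for *Lilrb4a* and for the lower *Cd300lf* probe, and levels should be compared between genotypes within a row, since probes differ in brightness for reasons of their own.

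**Figure D2:**
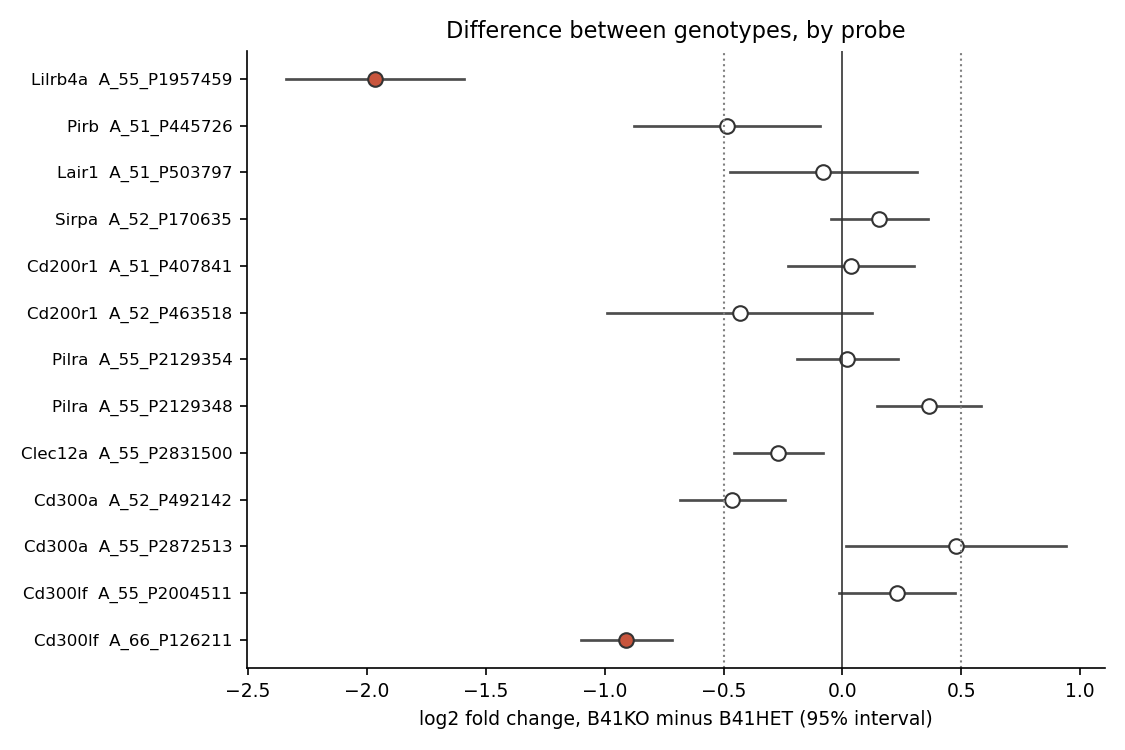
Log2 fold change (*B41*KO minus *B41*HET, horizontal axis) of each receptor probe with its unadjusted 95% interval from limma, filled where the call was made, and dotted lines at the fold threshold of 0.5. The 2 filled probes are *Lilrb4a* at -1.97 and the dimmer *Cd300lf* probe at -0.91, and the second probes of *Cd300a* and *Cd300lf* lie on the other side of 0 from the first.

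The arrays stood close to each other, with correlations of 0.989 to 0.993 within a genotype and 0.985 to 0.989 between genotypes, and 70.1% to 75.5% of probes were well above background. All 6 arrays shared 1 slide, where *B41*HET samples 1 to 3 and *B41*KO sample 1 lay in the first row and *B41*KO samples 2 and 3 in the second. *Bhlhe41* itself was not lower in *B41*KO. Its brighter probe read 7.95, 7.87 and 7.65 in *B41*HET and 8.56, 7.84 and 8.21 in *B41*KO samples (log2 signal), a log2 fold change of 0.38 (SE 0.20, adjusted P = 0.330, limma) that fell to 0.20 without *B41*KO sample 1 and was 0.74 with the slide row as a block. The dimmer probe gave 0.33 (SE 0.13, adjusted P = 0.203). Where these probes lie relative to the cassette, which ends in a polyadenylation signal, was not tested, so that the transcript gave no check of the genotype labels. The paralogue *Bhlhe40* gave 0.09 (SE 0.11, adjusted P = 0.705). When each array was only shifted to its 75th percentile instead of quantile normalized, the median log2 fold change of all probes moved from 0.02 to 0.13, and the calls over all probes went from 975 higher and 1892 lower to 1297 higher and 1534 lower. The receptor probes gave 0 calls higher and 2 lower under both scalings.

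The sort was not free of other leukocyte transcripts, and some of these differed between the genotypes. Of 12 neutrophil markers, 8 were called lower in *B41*KO and 0 higher, and their summed signal (linear intensity, brightest probe of each gene) ran from 24182 to 27074 in *B41*HET and from 4069 to 4434 in *B41*KO samples. Their defining granule genes were well above background in all 6 samples, and the neutrophil surface gene *Ly6g* was lower by 2.48 (log2). Of 12 border macrophage markers, 5 were called lower and 0 higher (sums of 2583 to 2780 against 1801 to 1959), and 12 of 12 had a negative log2 fold change. Of 12 monocyte markers, 5 were lower and 0 higher, with overlapping sums of 82657 to 89151 and 79470 to 95109. Of 12 dendritic cell markers, 3 were lower and 0 higher (1804 to 1944 against 1603 to 1754), with the type 1 dendritic cell gene *Xcr1* at background on every array. Of 10 B cell markers, 2 were lower and 0 higher (1560 to 1752 against 1572 to 1615), and 2 of the 10, *Ms4a1* among them, were at background on every array. Of 10 T and NK cell markers, 0 were called in either direction by limma, with 2 higher and 1 lower at an unadjusted P under 0.05 (sums of 1506 to 1544 against 1747 to 1858, with *Cd3g* and *Gzmb* at background). The 12 microglia markers were well above background on all arrays and held sums of 172785 to 187888 and 167080 to 176529, with 1 called lower, *Fcrls*, and 0 higher. In bulk RNA, fewer cells of a type and less RNA per cell cannot be told apart. The part that these transcripts have in the values of the receptors was not tested. The counts of lower markers were 8 or 9 for neutrophils under the other scalings, filters and the slide row block, and 0 for T and NK cells under every setting. They rested on the setting for the remaining lists. The filter on probes well above background raised border macrophage calls from 5 to 7 and dendritic cell calls from 3 to 5. Dendritic cell calls stayed at 3 with the percentile shift, normexp and the slide row block, and were 2 or 3 without any single sample. Monocyte calls stayed at 5 with normexp. At a log2 fold change of 1, microglia and B cell calls went to 0. Border macrophage calls went from 5 to 2 without *B41*HET sample 2, to 3 without *B41*HET sample 1, *B41*HET sample 3 or *B41*KO sample 2, to 2 with normexp background correction and to 1 with the slide row block, monocyte calls from 5 to 3 and microglia calls from 1 to 0 with the slide row block, and B cell calls from 2 to 0 with normexp or the slide row block and to 1 on leaving out each of 5 samples in turn.

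**Figure D3:**
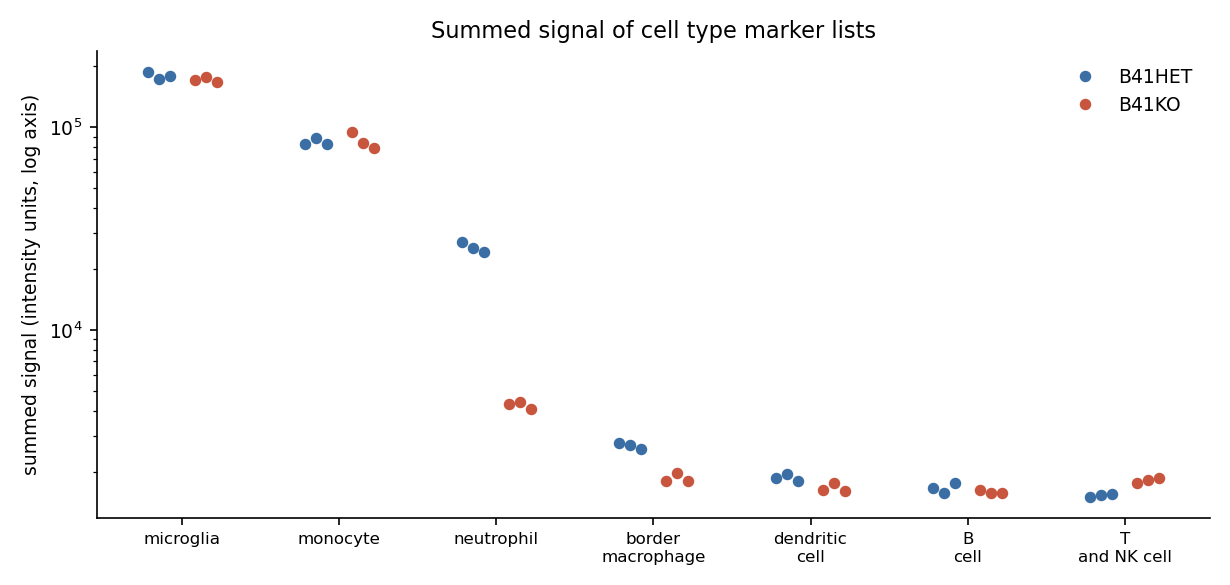
Summed signal (intensity units, log axis) of 7 cell type marker lists, with 1 point per sample, *B41*HET in blue and *B41*KO in red. The neutrophil sums fall from 24182 or more to 4434 or less, the border macrophage sums from 2583 or more to 1959 or less, and the microglia sums overlap.

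*Lilrb4a* encodes an inhibitory immunoglobulin-like receptor of mast cells, neutrophils and macrophages, for which apolipoprotein E and fibronectin have been described as ligands. Its 1 probe (A_55_P1957459, transcript NM_001291894) read 8.07, 8.16 and 7.76 in *B41*HET samples and 6.19, 6.10 and 5.81 in *B41*KO samples (log2 signal). Every *B41*KO sample lay below every *B41*HET sample, and the nearest samples of the genotypes were 1.58 apart. Of the marker sums given above, those of neutrophils, border macrophages and dendritic cells were lower in every *B41*KO than in every *B41*HET sample. Those of T and NK cells were higher in every *B41*KO sample, and those of monocytes, microglia and B cells overlapped. Any relation of these sums to *Lilrb4a* was not tested. The *Lilrb4a* means were 8.00 ± 0.21 and 6.03 ± 0.20 (SD, n = 3 each), a log2 fold change of -1.97 (SE 0.15, 95% interval -2.34 to -1.59, limma adjusted P = 0.00454). With the 3 samples per genotype the exact two-sided permutation test cannot go below P = 0.1, which it reached here. The call was kept without any single sample (-2.08 to -1.87, adjusted P between 0.0173 and 0.0297) and was lost when the slide row was fitted as a block (-1.81, adjusted P = 0.0534), a fit in which *B41*KO sample 1 alone sets the difference. With normexp background correction the difference was smaller, at -1.31, and was still called. *Lilrb4a* lies next to the near-identical *Lilr4b*, which had no named probe, and whether the *Lilrb4a* probe also reads that transcript was not tested.

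Of its ligands, *Apoe*, the lipid carrier of the brain, was also lower. Its brighter probe read 14.84, 14.75 and 14.69 in *B41*HET and 14.04, 14.07 and 14.12 in *B41*KO samples, a log2 fold change of -0.68 (SE 0.07, limma adjusted P = 0.0103), and its dimmer probe gave -0.94 (SE 0.13, adjusted P = 0.0177). The brighter probe's call was lost without *B41*HET sample 2 (adjusted P = 0.0554). The probes of *Fn1*, which encodes fibronectin, differed among themselves. The brightest gave -0.35 (SE 0.14, adjusted P = 0.213), whereas A_55_P2130178 and A_51_P100856 were well above background in the *B41*HET samples and not in the *B41*KO samples, at least 6.95-fold lower (adjusted P = 0.00166) and at least 4.75-fold lower (adjusted P = 0.00772). With normexp background correction the 2 dimmer probes were still called but differed by much less than these bounds, at -0.81 and -0.54 (log2), and the slide row block lost the call for A_51_P100856 (adjusted P = 0.0806). The brightest probe gave -0.13 with normexp and -0.22 without *B41*HET sample 2. Each bound compares the *B41*HET mean with the mean over the *B41*KO arrays of the lowest signal that counted as well above background there, or of the dim probe itself on an array where it read more.

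The paired immunoglobulin-like receptor gene *Pirb* encodes the inhibitory partner of the activating PIR-A receptors, and binds MHC class I and the myelin proteins Nogo, MAG and OMgp. Its probe read 6.89, 7.18 and 6.84 in *B41*HET and 6.60, 6.64 and 6.21 in *B41*KO samples. The genotypes did not overlap and were 0.20 apart at the nearest, with a log2 fold change of -0.49 (SE 0.16, 95% interval -0.88 to -0.10) that did not pass the test (limma adjusted P = 0.140) and was -0.25 with normexp background correction. *Pira2*, an activating partner encoded a few genes away, fell from 7.30, 6.87 and 7.07 to 5.52, 5.89 and 5.62, a log2 fold change of -1.40 (SE 0.15, adjusted P = 0.0100). With normexp the *Pira2* difference was smaller, at -0.88, and was still called. *Pira1*, *Pira6* and *Pira11* had no named probe, and reads of one *Pir* transcript by a probe for another were not tested. The *Pirb* ligands stayed under the thresholds, with log2 fold changes of -0.19 for *H2-K1* (adjusted P = 0.275), -0.04 for *H2-D1* (0.770), -0.10 for *B2m* (0.498), 0.09 for *Rtn4* (0.645), -0.09 for *Mag* (0.824) and -0.25 for *Omg* (0.609).

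*Lair1* encodes a receptor for collagens and for the complement component C1q. Its probe read 9.48, 9.26 and 9.18 in *B41*HET and 9.29, 9.45 and 8.94 in *B41*KO samples. The genotypes overlapped, with a log2 fold change of -0.08 (SE 0.16, 95% interval -0.47 to 0.31, limma adjusted P = 0.812), and the sign changed with the sample left out. The C1q subunits, which microglia make at very high levels, gave -0.15 for *C1qa* (adjusted P = 0.331), -0.03 for *C1qb* (0.871) and 0.16 for *C1qc* (0.443).

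*Sirpa* encodes the receptor for the "do not eat me" protein CD47. It read 10.45, 10.36 and 10.26 in *B41*HET and 10.54, 10.56 and 10.43 in *B41*KO samples. These values overlapped, with a log2 fold change of 0.15 (SE 0.08, 95% interval -0.05 to 0.36, limma adjusted P = 0.340). The upper bound of the interval lies under the fold threshold of 0.5, and normexp background correction gave 0.049. *Cd47* itself gave -0.03 (SE 0.11, adjusted P = 0.918), and the activating partner *Sirpb1a* gave -0.20 (SE 0.14, adjusted P = 0.466).

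*Cd200r1*, the receptor for CD200, had 2 probes for the same transcript (NM_021325). The brighter read 4.53, 4.30 and 4.64 in *B41*HET and 4.53, 4.48 and 4.58 in *B41*KO samples, a log2 fold change of 0.04 (SE 0.11, 95% interval -0.23 to 0.30, limma adjusted P = 0.881). The dimmer read 4.36, 4.42 and 4.43 against 4.29, 3.46 and 4.17, a log2 fold change of -0.43 (SE 0.22, 95% interval -0.99 to 0.13, adjusted P = 0.328), where *B41*KO sample 2 stood below the others and its removal left -0.18. This dimmer probe gave -0.053 with normexp and -0.11 with the slide row block. The brighter probe overlapped between genotypes and the dimmer did not. *Cd200* was not well above background in any of these sorted samples. *Cd200r2*, a related activating receptor encoded in the same cluster, read 4.28, 4.41 and 4.47 in *B41*HET and 4.92, 5.34 and 5.25 in *B41*KO samples, a log2 fold change of 0.78 (SE 0.13, adjusted P = 0.0303), and the call was lost on leaving out each of 5 samples in turn (adjusted P up to 0.104) and with normexp (0.33).

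*Pilra*, an inhibitory receptor for sialylated proteins such as PIANP, had 2 probes for 1 transcript (NM_153510). The brighter read 8.49, 8.54 and 8.52 in *B41*HET and 8.53, 8.67 and 8.42 in *B41*KO samples, a log2 fold change of 0.02 (SE 0.09, 95% interval -0.19 to 0.23, limma adjusted P = 0.919). The dimmer read 5.49, 5.63 and 5.40 against 5.81, 5.94 and 5.86, and although its genotypes did not overlap, its log2 fold change of 0.36 (SE 0.09, 95% interval 0.14 to 0.58) did not pass the test (adjusted P = 0.0740) and was 0.16 with normexp. Its ligand gene *Pianp* rose from 6.89, 6.72 and 6.79 to 8.03, 8.05 and 8.09, a 2.39-fold difference (log2 fold change 1.26, SE 0.08, adjusted P = 0.00223), and kept the call without any single sample (1.21 to 1.29). Its second probe was well above background in the *B41*KO samples and not in the *B41*HET samples, at least 3.21-fold higher (adjusted P = 0.00848), but its call was lost with normexp background correction (log2 fold change 0.39) and when the slide row was blocked (adjusted P = 0.0793).

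The activating partners of *Pilra* are encoded beside it. *Pilrb2* read 8.31, 8.14 and 8.26 in *B41*HET and 7.08, 6.93 and 6.76 in *B41*KO samples, a log2 fold change of -1.31 (SE 0.11, limma adjusted P = 0.00514), and kept the call without any single sample. *Pilrb1* depended on the probe, with -0.02 (SE 0.08, adjusted P = 0.906) for the brighter and -1.82 (SE 0.16, adjusted P = 0.00660) for the dimmer, which gave -0.997 with normexp and lost the call with the slide row as a block (adjusted P = 0.0709). The *Pilr* transcripts resemble each other, and how each probe divides them was not tested.

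*Clec12a* encodes a C-type lectin receptor that senses uric acid crystals. Its probe read 7.04, 7.08 and 6.98 in *B41*HET and 6.68, 6.78 and 6.83 in *B41*KO samples. The genotypes did not overlap and were 0.15 apart at the nearest, with a log2 fold change of -0.27 (SE 0.08, 95% interval -0.46 to -0.08) that did not pass the test (limma adjusted P = 0.102) and was -0.18 with normexp background correction.

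*Cd300a* and *Cd300lf* lie in 1 gene cluster and encode receptors for phosphatidylserine and other lipids that dying cells expose. The brighter *Cd300a* probe read 13.423, 13.361 and 13.298 in *B41*HET and 12.922, 13.001 and 12.769 in *B41*KO samples. Its genotypes were 0.30 apart at the nearest, and its log2 fold change of -0.46 (SE 0.09, 95% interval -0.68 to -0.24) passed the P threshold (limma adjusted P = 0.0414) but not that of 0.5 for the fold change. With normexp background correction both were passed (-0.51, adjusted P = 0.000561). The P threshold was missed with the deposited table (adjusted P = 0.0515), the percentile shift (0.0556) and the slide row block (0.240), and on leaving out each sample in turn (between 0.0729 and 0.135). The dimmer *Cd300a* probe moved the other way, from 9.01, 9.66 and 9.58 to 9.84, 9.86 and 9.99 (0.48, SE 0.19, 95% interval 0.02 to 0.94, adjusted P = 0.204), and gave 0.27 without *B41*HET sample 1.

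For *Cd300lf* the brighter probe read 8.70, 8.68 and 8.85 in *B41*HET and 9.10, 8.97 and 8.85 in *B41*KO samples. The genotypes met at 8.85, with a log2 fold change of 0.23 (SE 0.10, 95% interval -0.01 to 0.47, limma adjusted P = 0.242) that was 0.36 with the slide row block. The dimmer probe read 8.31, 8.18 and 8.36 against 7.39, 7.39 and 7.34. These samples were 0.79 apart at the nearest, and the means of 8.28 ± 0.09 and 7.37 ± 0.03 (SD, n = 3 each) gave a log2 fold change of -0.91 (SE 0.08, 95% interval -1.10 to -0.72, adjusted P = 0.00567). The call held without any single sample (-0.96 to -0.87, adjusted P between 0.0276 and 0.0341) and was lost with the slide row as a block (-0.89, adjusted P = 0.0654).

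Both probes of each of these genes carry 1 transcript accession (NM_170758 for *Cd300a* and NM_001169153 for *Cd300lf*), so the distance between them is given for each array, as a description of the same values. For *Cd300lf* the brighter probe stood 0.39, 0.50 and 0.49 above the dimmer in *B41*HET samples and 1.71, 1.58 and 1.50 above it in *B41*KO samples (log2), an increase of 1.14. For *Cd300a* the distance was 4.41, 3.70 and 3.72 in *B41*HET and 3.08, 3.14 and 2.78 in *B41*KO samples, smaller by 0.94, with *B41*HET sample 1 apart from the others. In both genes the genotypes did not overlap, nor did they for *Cd200r1* (0.09 ± 0.18 against 0.55 ± 0.41, SD, n = 3 each) and *Pilra* (3.01 ± 0.11 against 2.67 ± 0.09, SD, n = 3 each). The same separation was found for 40.5% of the 4077 genes with 2 probes that were both well above background on all arrays. Averaged over probes, *Cd300lf* gave -0.34 (limma adjusted P = 0.0672) and *Cd300a* 0.007 (adjusted P = 0.977), and *Lilrb4a* was the only receptor called.

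**Figure D4:**
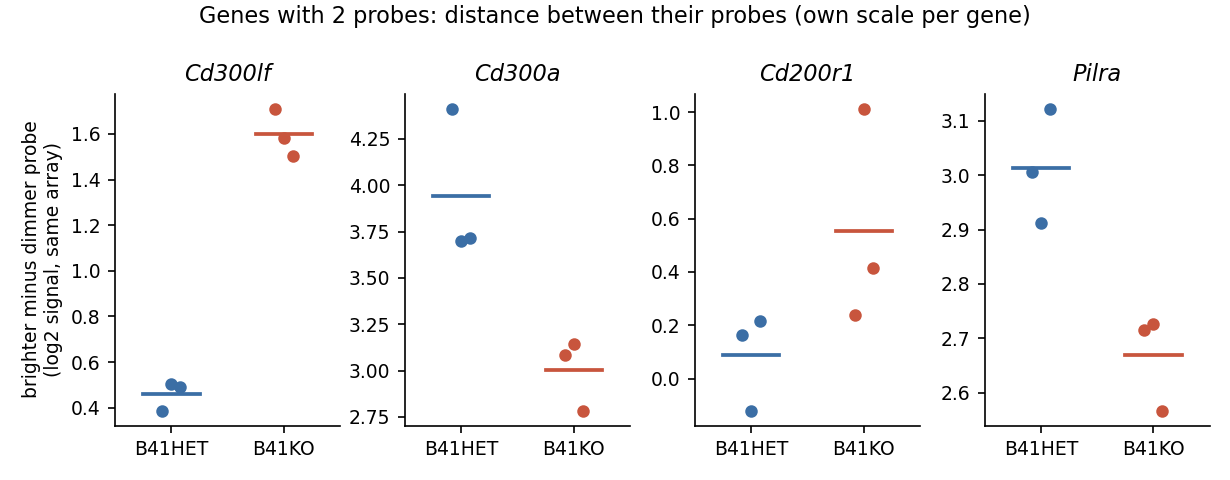
Brighter minus dimmer probe (log2 signal on the same array, vertical axis with its own scale for each gene) for the 4 receptor genes with 2 probes, with 1 point per sample and a bar at the mean of 3 samples. The distance grew in *B41*KO for *Cd300lf* (0.46 to 1.60) and *Cd200r1* (0.09 to 0.55) and shrank for *Cd300a* (3.94 to 3.00) and *Pilra* (3.01 to 2.67).

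The other genes of the *Cd300* cluster went both ways. *Cd300c2*, which encodes an activating receptor, rose from 9.83, 9.78 and 9.61 to 10.55, 10.53 and 10.37 (log2 fold change 0.74, SE 0.09, limma adjusted P = 0.0151). *Cd300ld* fell from 5.89, 5.80 and 5.99 to 4.53, 4.93 and 5.19 (-1.01, SE 0.18, adjusted P = 0.0338), and *Cd300lb* gave -0.07 (adjusted P = 0.846). Leaving out single samples in turn lost the call for *Cd300c2* in 4 of 6 cases (adjusted P up to 0.0660) and for *Cd300ld* in 5 of 6 (up to 0.106), and *Cd300ld* also lost it with normexp (-0.42) and with the percentile shift (adjusted P = 0.0501).

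Bhlhe41 is known as a repressor that binds E-boxes, above all the palindrome CACGTG, which is contained in the wider motif CANNTG. Both motifs read the same on either strand. RefSeq promoters of GRCm38.p6, from 250 bases before to 50 bases after each start, were searched for the 6 receptors that matched (*Pilra*, *Pirb*, *Lair1*, *Cd300a*, *Cd300lf* and *Clec12a*), and *Lilrb4a*, *Sirpa* and *Cd200r1* were not matched. CACGTG stood in 0 of the 6 windows and in 7.15% of 32851 promoter windows of the same length, and CANNTG stood in 4 of the 6 and in 72.3% of all. A match or its absence is a feature of these letters only. The paper reports Bhlhe41 binding at CACGTG sites in the *Cd22* and *Bhlhe41* promoters, some of which lie farther upstream than this window reaches. Sites of that kind would be missed by this search. Shown are *Cd300lf* (chr11:115133943-115134242, minus strand, 0 matches), whose dimmer probe fell, *Cd300a* of the same gene cluster (chr11:114889791-114890090, plus strand, 1 match), *Pirb* as the receptor with the most matches (chr7:3720333-3720632, minus strand, 4 matches), and *Bhlhe41* itself (chr6:145865371-145865670, minus strand, 4 matches, 1 of them CACGTG), each 5′ to 3′ with every CANNTG in capitals.
Cd300lf: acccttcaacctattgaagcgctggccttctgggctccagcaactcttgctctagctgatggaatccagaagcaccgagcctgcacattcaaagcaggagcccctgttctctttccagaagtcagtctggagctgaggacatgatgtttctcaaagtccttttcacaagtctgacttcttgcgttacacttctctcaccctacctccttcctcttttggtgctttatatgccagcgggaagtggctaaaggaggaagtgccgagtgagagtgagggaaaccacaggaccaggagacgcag
Cd300a: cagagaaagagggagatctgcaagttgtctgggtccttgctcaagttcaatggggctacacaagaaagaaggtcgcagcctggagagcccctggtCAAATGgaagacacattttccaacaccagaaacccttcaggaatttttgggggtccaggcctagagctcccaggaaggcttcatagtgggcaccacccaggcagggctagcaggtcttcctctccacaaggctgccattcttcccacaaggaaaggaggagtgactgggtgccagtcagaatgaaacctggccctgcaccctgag
Pirb: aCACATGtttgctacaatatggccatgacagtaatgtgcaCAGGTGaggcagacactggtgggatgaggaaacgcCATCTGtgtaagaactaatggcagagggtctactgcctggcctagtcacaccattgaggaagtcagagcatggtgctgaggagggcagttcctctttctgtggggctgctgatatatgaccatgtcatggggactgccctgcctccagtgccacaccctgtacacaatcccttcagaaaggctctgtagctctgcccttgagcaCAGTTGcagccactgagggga
Bhlhe41: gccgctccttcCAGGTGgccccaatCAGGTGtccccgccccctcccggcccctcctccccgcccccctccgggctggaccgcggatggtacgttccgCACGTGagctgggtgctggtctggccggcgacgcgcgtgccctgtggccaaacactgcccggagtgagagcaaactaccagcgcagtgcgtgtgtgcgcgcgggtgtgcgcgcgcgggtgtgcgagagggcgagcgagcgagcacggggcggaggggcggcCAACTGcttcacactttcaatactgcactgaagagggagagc

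Beyond the 9 receptors, 4 related gene lists were read by the brightest probe of each gene. With the slide row as a block, *Pianp* (adjusted P = 0.0380) and *Pecam1* (adjusted P = 0.0320) kept the limma call and the other called genes of these lists lost it, while *Clec4a2*, an inhibitory lectin gene that no array read well above background and that was looked up after its value was seen, was called higher in that fit alone (log2 fold change 1.72, adjusted P = 0.0358). Of 22 activating partners and adaptors, 16 had a probe, and 2 were called higher (*Cd300c2* and *Cd200r2*) and 4 lower, namely *Pira2*, *Pilrb2*, *Cd300ld* and *Tarm1*, of which *Tarm1* did not rise well above background in any sample. The shared adaptors gave log2 fold changes of 0.04 for *Tyrobp* (limma adjusted P = 0.800) and 0.15 for *Fcer1g* (adjusted P = 0.390). The list's median was -0.04.

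Of 13 ITIM kinases, phosphatases and adaptors, 0 were called higher and 2 lower, with a median of -0.12. These were the Src family kinase gene *Fgr* (-0.52, SE 0.10, limma adjusted P = 0.0462) and the adaptor gene *Shc1* (-0.52, SE 0.10, adjusted P = 0.0424). Both calls were lost when arrays were shifted to the 75th percentile (adjusted P of 0.0535 and 0.0539) and with normexp (-0.45 and -0.42). Leaving out single samples in turn lost the call for *Fgr* in 5 of 6 cases and for *Shc1* in 6 of 6. The dimmer *Shc1* probe gave 0.19 (adjusted P = 0.582). The phosphatase genes did not pass, at -0.13 for *Ptpn6* (adjusted P = 0.289), 0.26 for *Ptpn11* (0.199) and 0.13 for *Inpp5d* (0.727). *Dok1* was higher by 0.39 (SE 0.07, limma adjusted P = 0.0325), under the fold threshold. It missed the P threshold with the percentile shift (0.0593), the slide row block (0.221) and on leaving out each sample in turn (between 0.0778 and 0.118).

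Of 23 known ligands, *Pianp* was the 1 called higher and *Apoe* the 1 called lower, with a median of -0.02. Of 19 other inhibitory receptors, 0 were called higher and 4 lower, with a median of -0.04. These 4 were *Pecam1* (8.49, 8.34 and 8.27 in *B41*HET, 6.58, 6.86 and 6.61 in *B41*KO), an adhesion receptor of endothelium and leukocytes, at -1.68 (SE 0.11, limma adjusted P = 0.00301), the sialic acid receptor gene *Siglecg* at -1.03 (SE 0.08, adjusted P = 0.00526), *Ceacam1* at -0.998 (SE 0.12, adjusted P = 0.0124), and the inhibitory Fc receptor gene *Fcgr2b* at -0.75 (SE 0.11, adjusted P = 0.0234). *Pecam1* and the brighter *Siglecg* probe kept the call without any single sample, whereas *Ceacam1* lost it without *B41*HET sample 1 (adjusted P = 0.0529) and without *B41*KO sample 2 (adjusted P = 0.0555), and *Fcgr2b* lost it on leaving out each of 5 samples in turn (adjusted P up to 0.0925). The dimmer *Siglecg* probe gave -0.71 (adjusted P = 0.0274), and its call was likewise lost on leaving out each of 5 samples in turn (adjusted P up to 0.103) and with normexp (-0.47). *Cd22* was not among the genes called by the brightest probe in the related lists. The paper, in contrast, reports this inhibitory receptor gene as upregulated in young *Bhlhe41*-deficient microglia. The reason for this difference was not tested.

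**Figure D5:**
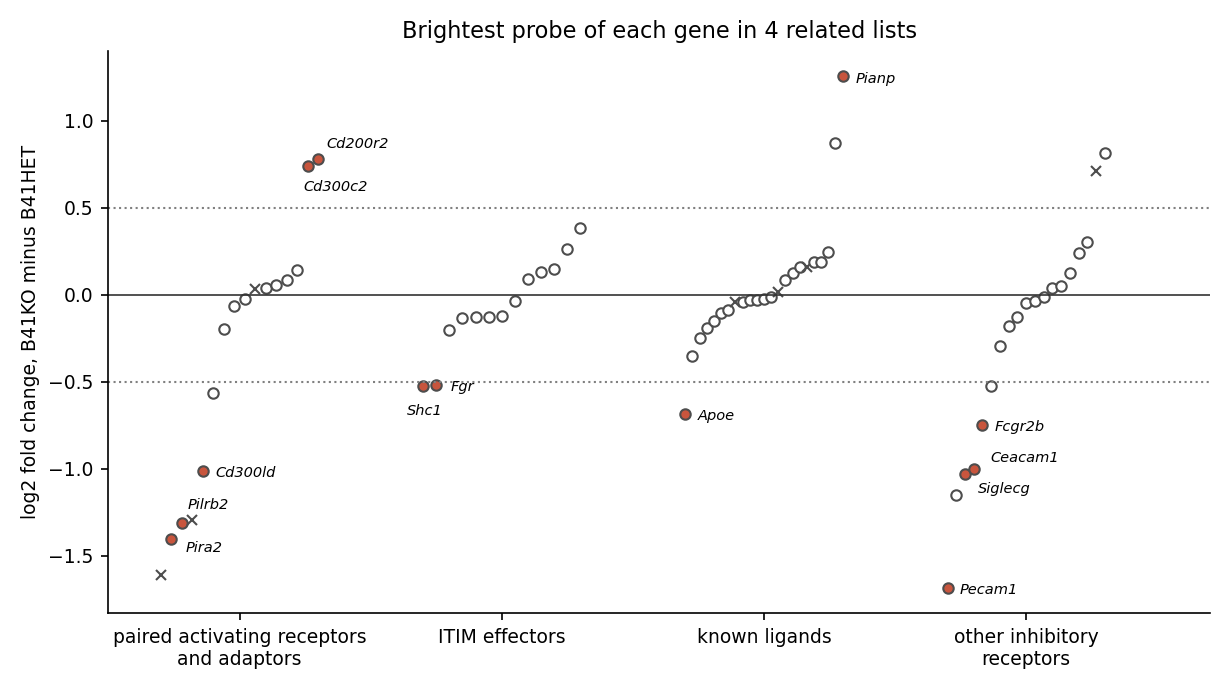
Log2 fold change (*B41*KO minus *B41*HET, vertical axis) of the brightest probe of each gene in 4 related lists, ordered within a list, filled and named where called, with crosses for probes that no array read well above background and dotted lines at the fold threshold of 0.5. Most genes lie between the lines, *Pianp* stands highest at 1.26, and *Pecam1*, *Pira2* and *Pilrb2* stand lowest among the named genes.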

How the data were processed

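Total RNA from 3 *B41*HET and 3 *B41*KO microglia samples (100 ng each) was labelled with Cy3 and hybridised to Agilent SurePrint G3 Mouse GE v2 8x60K arrays. The authors deposited scanner output of Feature Extraction 11.5.1.1, whose processed intensities were background-subtracted array by array without normalization across arrays. They also deposited a table of log2 values, whose columns share their quantiles and rank probes as the arrays do. That table (56745 entries, 140 of them controls) served as an alternative, and its scale and normalization are not stated in it. The array design refers to mm9.

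Control spots were left out (59305 of 62976 spots kept), as were 95 to 136 outlier spots per array, and 0 spots were saturated. Log2 intensities were quantile normalized and averaged per probe (56605 probes, 56601 with values in at least 2 samples of each genotype). Accessions were matched to RefSeq names (GRCm38.p6), which named 33767 probes (59.7%). Limma 3.58.1 in R 4.3.3 compared genotypes without covariates, with Benjamini-Hochberg adjustment over all probes, and called a probe where the adjusted P was at most 0.05 and the log2 fold change reached 0.5 in size, thresholds taken from the study's methods. For counts of genes, the probe with the highest mean was used. Exact permutation tests were run in scipy 1.17.1. Every receptor probe is named, as are *Bhlhe41* and *Bhlhe40*, at most 5 called genes of each related list, and ligands and partners of a receptor. The receptors, lists and tests were chosen with earlier results of these data known, and the ranges given for single genes of the lists under other settings were added after seeing the data.

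No block was used in the reported fit, because the study's methods name none. Same-numbered samples of the genotypes did not deviate together (correlations of 0.0276, 0.0136 and 0.0478). On simulated arrays with 200 of 56559 probes changed, 53% of those changed by a log2 of 1 and 94% of those changed by a log2 of 2 were called, with 0 in the wrong direction and 6 false among 153 calls. In the data 975 probes were called higher and 1892 lower, a larger share than was changed in the simulation. These rates therefore need not hold for the data. The number of arrays, 6, limits the precision. Alternatives were a 75th percentile shift, the deposited table, normexp on median signals (offset 50), a filter on probes well above background on 3 or more arrays, keeping outlier spots, trend and robust variance, blocks for replicate number or slide row, other fold thresholds, and leaving out each sample.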

Additional observations from a re-analysis of the deposited data

How the results depend on the processing

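The number of receptor probes and genes called higher was 0 under every setting run. Of receptor probes, 2 were lower in the reported fit, 3 with normexp, 3 with no fold threshold, 1 with a replicate block, 0 with a slide row block and 1 when the log2 fold change had to reach 1 in size. Of receptor genes, 1 was lower in the reported fit, 2 with normexp, 0 with a slide row block, 2 with no fold threshold and 2 by the probe with the lowest P. Without any single sample the counts were 2 probes and 1 gene. Over all probes the calls were 975 higher and 1892 lower in the reported fit, 423 and 1077 with normexp, 1367 and 2444 with no fold threshold, and 249 and 550 at a log2 fold change of 1. The replicate block reduced them to 2 higher and 40 lower (adjusted P of 0.0497 for *Lilrb4a* and 0.0721 for the dimmer *Cd300lf* probe), and the slide row block to 184 and 260. By their brightest probes, the called genes of the related lists all lost the call with the replicate block, as did the second probe of *Pianp* (adjusted P = 0.0724). With that block the lower markers numbered 6 for neutrophils, 1 for monocytes and 0 for border macrophages, dendritic cells, B cells and microglia. Only *B41*KO sample 1 shares its slide row with *B41*HET samples, so row and genotype are separated by 1 array. Signs changed for uncalled probes when a single sample was left out, with ranges of -0.057 to 0.11 for *Cd200r1* (brighter), -0.19 to 0.062 for *Lair1*, -0.043 to 0.079 for *Pilra* (brighter), -0.0041 to 0.16 for *Bhlhe40*, -0.11 to 0.046 for *Cd47* and -0.062 to 0.027 for *Pilrb1* (brighter). *Cd47* gave 0.0024 from the deposited table and 0.039 with the slide row block, *Pilrb1* 0.021 with the percentile shift and 0.013 with the slide row block, and *Tyrobp* -0.046 with the slide row block. With normexp the dimmer *Cd300lf* probe gave -0.77 and was called. The cause of these shifts was not tested.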
